A study of Oncorhynchus mykiss with 6 samples.

Results

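The miR-205 family was described in dorsal skin of rainbow trout (Oncorhynchus mykiss), from small RNA libraries of 3 wild-type (WR_S) and 3 yellow mutant (YR_S) fish. Its members were taken by name: every entry of the miRNA expression table that reads mir-205 after the species prefix, whatever its arm, letter or length, which gave 10 of 1426 entries. All fish were females of 12 months after hatching, reared together in a flowing water pond and not infected experimentally. WR_S fish have black skin with melanocytes, while YR_S fish are a colour variant that lacks melanocytes. The mutated gene is not named in the sources used here. The study compared the groups to find RNA differences related to skin immunity. Each library held 1442631 (YR_S replicate 1) to 5089802 summed counts, so YR_S replicate 1 was the shallowest. Libraries are given below in replicate order.

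miR-205 is a miRNA of stratified epithelia, and in the mouse and in humans it is abundant in keratinocytes, the main cells of the epidermis. A miRNA is cut from a hairpin precursor, which can give a product from its 5′ arm (5p) and another from its 3′ arm (3p), and bases 2 to 8 of each product, the seed, direct it to matching mRNAs. In mouse skin miR-205 promotes growth of epidermal and hair follicle stem cells by repressing inhibitors of PI3K and AKT signalling, and in mammalian cell lines it represses the transcription factors ZEB1 and ZEB2 together with the miR-200 family, which keeps cells epithelial. Salmonids carry several miR-205 genes, named miR-205a and miR-205b with numbered copies.

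The 10 entries held 5 products of the 5p arm and 5 of the 3p arm, with 6 different seeds. The 4 abundant 5p entries are shown because they share the seed CCTTCAT (capitals mark bases 2 to 8, written with T as deposited) and differ only towards the 3′ end:
ssa-miR-205b-5p: tCCTTCATtccaccggagtctg
ssa-miR-205a-5p: tCCTTCATtccaccggatcct
gmo-miR-205-5p_R+5: tCCTTCATtccaccggagtctgtt
efu-miR-205_R+1_1ss23TA: tCCTTCATtccaccggagtctgat
The prefix gives the species whose database sequence was matched (ssa Atlantic salmon, gmo Atlantic cod, efu a bat), and the suffix gives added or removed end bases and base changes. The sequences of miR-205a-5p and miR-205b-5p were the same over their first 17 bases and differed by 3 edits in all. Both the cod and the bat entry held the whole of ssa-miR-205b-5p with 2 further bases at the 3′ end, so by sequence they are longer forms of miR-205b-5p although their names carry no letter. The fifth 5p entry was ssa-miR-205a-5p with 1 further base at the 5′ end, which moves the seed by that base, and its frog name (xtr) says miR-205b although its sequence holds miR-205a:
xtr-miR-205b_L+1R-1: cTCCTTCAttccaccggatcct

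The 3p entries are printed because their names and sequences tell gene copies apart, which the entry ssa-miR-205b-5p does not:
ssa-miR-205a-3p: aTTCCCAGtgggatgaagctc
ssa-miR-205b-1-3p: gATTTCAGtggtatgaagagt
ssa-miR-205b-2-3p: gATTTCAGtggtgtgaagagta
ssa-miR-205b-4-3p: gATTTCTGtgaaatgaagtgta
oni-mir-205-2-p3_1ss17TA: tTTCAGTGgtgtgaagagtaa
The miR-205b-1 and miR-205b-2 products shared a seed and differed by 2 edits, while miR-205a-3p differed from both by 7 and 8 edits. The tilapia entry (oni) began 2 bases inside miR-205b-2-3p and matched it over 20 bases. Among the entries of other names, 3 had the seed of a miR-205 3p product, and all 3 were predicted candidates (names starting PC-) of the authors:
PC-3p-720_6860: aTTCCCAGtgggatgaagctca
PC-3p-21268_105: tTTCAGTGgtgtgaagagtaat
PC-3p-97290_5: gATTTCAGtggtatgaagagtaat
They held the whole of ssa-miR-205a-3p, oni-mir-205-2-p3_1ss17TA and ssa-miR-205b-1-3p with 1, 1 and 3 further 3′ bases. They are not members by name and are counted below only where this is said.

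The miR-205b 5p product made up most of the family. Levels are counts scaled to 1e6 per library (CPM) on TMM library sizes, which correct for composition, and a count of 3 stood for 1.95 CPM in YR_S replicate 1 while in the other libraries it stood for 0.578 to 0.765 CPM. ssa-miR-205b-5p gave 15734, 17724 and 11571 CPM in the WR_S libraries and 19680, 11162 and 13852 CPM in the YR_S libraries. The highest and the lowest library were both YR_S, so the groups overlapped. By mean level it ranked 8 among the 1280 distinct sequences of the table, and 6 to 13 within single libraries. Sequences listed under several names were ranked by a single entry, so some of them may be ranked too low. The whole family took 1.35 to 2 percent of all counts in WR_S and 1.11 to 2.23 percent in YR_S.

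**Figure D1:**
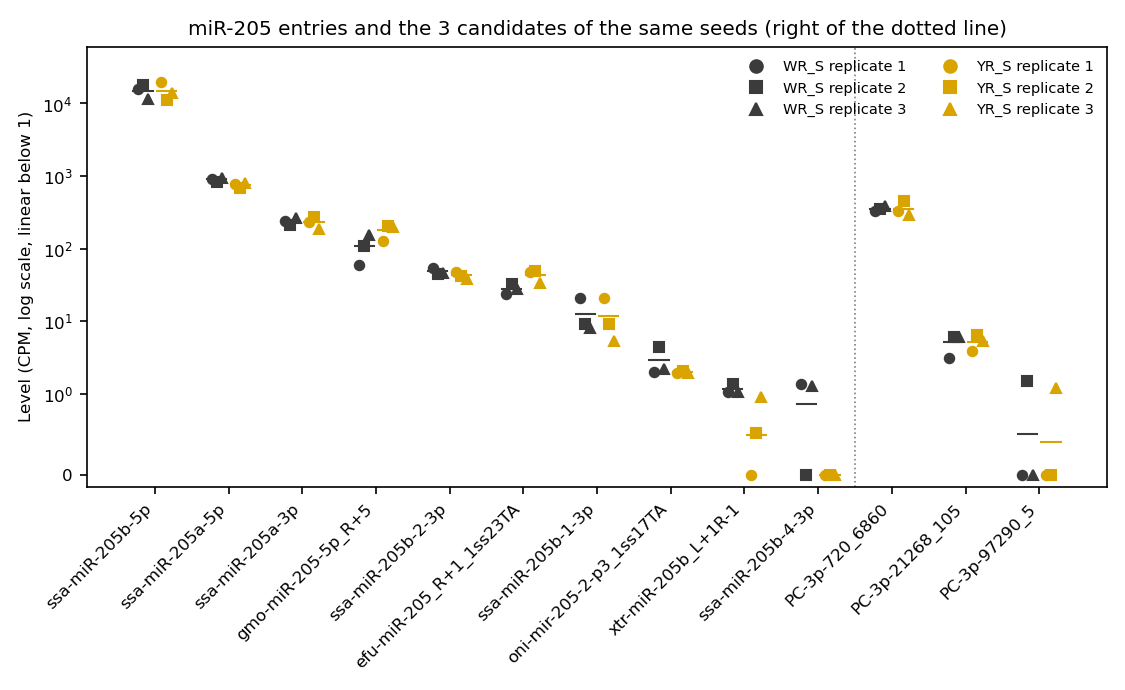
Level of each miR-205 entry and of the 3 candidates of the same seeds in every library (y axis, CPM on a log scale that is linear below 1; grey WR_S, yellow YR_S, symbols for replicates, bars for group means). The entries ran from 15010 CPM for ssa-miR-205b-5p to below 1 CPM for ssa-miR-205b-4-3p (WR_S means), and the groups overlapped in most of them.

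The miR-205a 5p product was much lower. ssa-miR-205a-5p gave 925, 838 and 949 CPM in WR_S and 780, 675 and 811 CPM in YR_S, so that every YR_S library was below every WR_S library. By sequence, the miR-205b 5p entries held 17.1, 21.3 and 12.4 times the counts of the miR-205a 5p entries in WR_S and 25.5, 16.9 and 17.3 times in YR_S. The share of 5p counts in entries named miR-205b was 93.3 ± 1.93% (SD, n = 3) in WR_S and 93.6 ± 1.61% (n = 3) in YR_S, and with paralogs told apart by sequence it was 94.2 ± 1.52% and 95.1 ± 1.01%. These shares did not differ beyond the spread between libraries (two-sided exact permutation test, p = 0.9 and 0.5, where 3 against 3 libraries cannot give less than 0.1).

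The longer miR-205b-5p forms were minor. gmo-miR-205-5p_R+5, which ends in TT, gave 59.8, 109 and 155 CPM in WR_S and 128, 206 and 200 CPM in YR_S. WR_S replicate 3 lay above YR_S replicate 1, so the groups overlapped. efu-miR-205_R+1_1ss23TA, which ends in AT, gave 23.7, 33.1 and 27.5 CPM in WR_S and 48.2, 49.5 and 33.3 CPM in YR_S. Here every YR_S library was above every WR_S library, by little for YR_S replicate 3. Its 33.3 CPM came from 138 counts and the 33.1 CPM of WR_S replicate 2 from 156, so their order rests on the TMM scaling. Of the counts of both forms, the TT form held 71.6 to 85.8% over the 6 libraries. The entry with a shifted seed, xtr-miR-205b_L+1R-1, had 5.5, 6.5 and 5 counts in WR_S and 0, 2 and 4 counts in YR_S. At this depth 0 counts in YR_S replicate 1 allow up to 1.95 CPM, which is more than any other library held (1.38 CPM at most).

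The 3p products ordered the paralogs the other way. ssa-miR-205a-3p was the highest, with 243, 215 and 261 CPM in WR_S and 230, 276 and 186 CPM in YR_S. ssa-miR-205b-2-3p followed with 54.4, 44.8 and 46.4 CPM in WR_S and 47.2, 42.7 and 38.7 CPM in YR_S. ssa-miR-205b-1-3p gave 21.1, 9.13 and 8.05 CPM in WR_S and 21.2, 9.31 and 5.42 CPM in YR_S. In both groups replicate 1 stood above the others for this entry, and miR-205b-1-3p took 27.9 and 31% of the miR-205b-1-3p and miR-205b-2-3p counts there, against 12.3 to 17.9% in the other libraries. In YR_S replicate 1 that share rested on 105 counts and its 95% binomial interval (Wilson, covering counting error only) was 22.5 to 39.8%. oni-mir-205-2-p3_1ss17TA stayed at 1.93 to 4.46 CPM. ssa-miR-205b-4-3p had 7 and 6 counts in WR_S replicates 1 and 3 and none in the other 4 libraries, where a count of 0 allows 0.637 CPM in WR_S replicate 2 and 0.723 to 1.95 CPM in YR_S.

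The candidate PC-3p-720_6860, the miR-205a-3p sequence with a further A, was more abundant than the named entry. It gave 329, 353 and 390 CPM in WR_S and 326, 453 and 289 CPM in YR_S. ssa-miR-205a-3p therefore held only 42.4, 37.8 and 40.1% of the counts of both in WR_S and 41.3, 37.8 and 39.2% in YR_S, a split that varied little between libraries. PC-3p-21268_105 lay between 3.08 and 6.38 CPM, and PC-3p-97290_5 had counts in 2 libraries only. Of all 3p counts, named or candidate, the candidates held 50.8 to 58.2%.

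The paralogs differed in how much of their counts came from the 3p arm. In the miR-205a entries the 3p arm held 20.8, 20.4 and 21.6% of the counts in WR_S and 22.8, 29 and 18.6% in YR_S. With the candidate added these shares were 38.2, 40.4 and 40.7% in WR_S and 41.6, 51.9 and 36.9% in YR_S. The miR-205a 5p counts were then 0.926 to 1.71 times the 3p counts, and in YR_S replicate 2 the 3p arm was the larger. These are read counts, and the amounts of the products were not measured. In the miR-205b entries, with the cod and bat entries counted as miR-205b, the 3p arm held 0.496, 0.326 and 0.49% in WR_S and 0.353, 0.471 and 0.326% in YR_S, and with candidates 0.368 to 0.542% over the 6 libraries. With candidates, the 3p share of miR-205a was 74.1 to 112 times that of miR-205b, higher in 6 of 6 libraries. In the shallowest library the Wilson intervals were 39.5 to 43.8% for miR-205a and 0.31 to 0.447% for miR-205b. This contrast was noticed in the same data and is given as a description with no test. Part of the deposited counts are not whole, and how reads that match several copies were counted is not stated in the sources used here, so the shares hold for these entries and not for single genes.

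**Figure D2:**
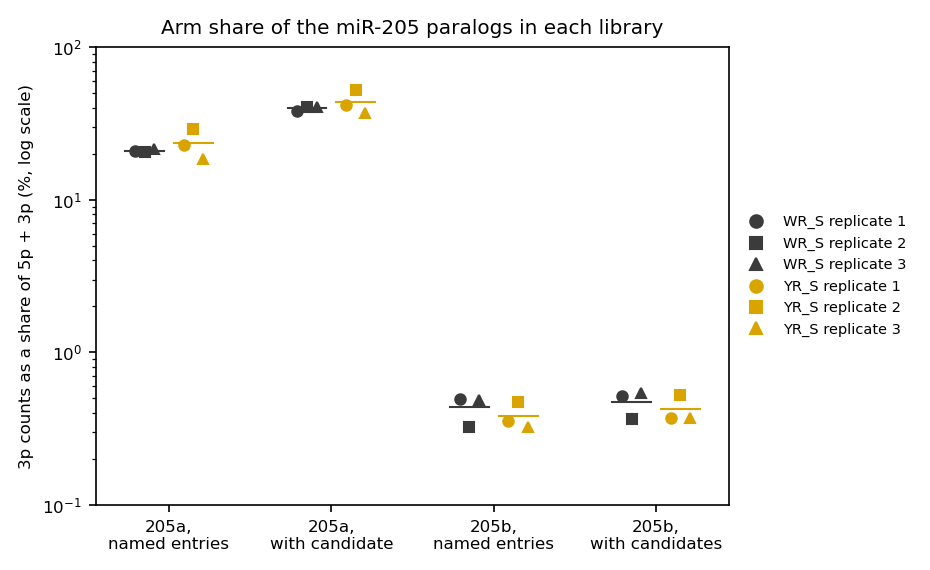
Share of 3p counts among 5p and 3p counts (y axis, percent, log scale) for the miR-205a and the miR-205b entries, with and without the candidates, in each library (symbols) and as group means (bars). The miR-205a shares lie between 18.6 and 51.9%, and the miR-205b shares between 0.326 and 0.542%, in both groups.

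Over the whole family the 3p share was 1.93 ± 0.506% in WR_S and 1.87 ± 0.679% in YR_S (two-sided exact permutation p = 0.9, n = 3 each). Its sign turned when the candidates were counted (4.12 ± 1.07% in WR_S and 4.17 ± 1.71% in YR_S, exact permutation p = 0.9). Neither difference exceeded the spread between libraries. The arm shares within miR-205a and within miR-205b also overlapped between the groups (with candidates, exact permutation p = 0.7 for each).

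The groups were then compared, to ask whether miR-205 differed between YR_S and WR_S skin. Summed over the 10 entries the family was at 17065, 18979 and 13022 CPM in WR_S and at 20937, 12423 and 15130 CPM in YR_S, with means of 16355 ± 3041 and 16163 ± 4350 CPM (log2 ratio -0.02). The groups overlapped widely. In bulk skin fewer epidermal cells and less miRNA per cell cannot be told apart. edgeR's quasi-likelihood test was run over the 1085 entries above 0 in at least 3 libraries, which included 9 of the 10 members, all but ssa-miR-205b-4-3p. None of the 9 had an adjusted p below 0.05 (0% of all entries tested did), and none an unadjusted p below 0.05, against 10.4% of all entries (3.5% higher and 6.91% lower in YR_S). The study's rule asks for a log2 fold change of 1 or more in size with an unadjusted p below 0.05. Applied here to the edgeR values, and not to the study's own, it was met by none of the 9 and by 8.2% of all entries. DESeq2 and limma also gave none of the 9 an adjusted p below 0.05, where DESeq2 called 3.69% of the 976 entries for which it gave one and limma called 0. The groups did not overlap in 3 of the 9, against 17.3% of all entries, with YR_S above in 1 (8.29% of all entries) and below in 2 (9.03% of all entries). For xtr-miR-205b_L+1R-1, 1 of the 2, this holds for the values as counted only, given what its 0 in YR_S replicate 1 allows. For efu-miR-205_R+1_1ss23TA, the entry with YR_S above, it rests on the TMM scaling. Of the 9 entries 7 had a log2 fold change below 0, as did 52.6% of all entries, with a median of -0.17 beside -0.03 over all entries.

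For ssa-miR-205b-5p the fold change was 0.993 with a 95% interval of 0.655 to 1.5, so the libraries leave room for a moderate change in either direction (log2 fold change -0.01 ± 0.26 SE, edgeR adjusted p = 0.997). ssa-miR-205a-5p was at 0.836 of the WR_S level (interval 0.614 to 1.14, log2 fold change -0.26 ± 0.19 SE, edgeR adjusted p = 0.779). Its groups did not overlap, yet the difference did not pass the test. ssa-miR-205a-3p was at 0.962 (0.652 to 1.42) and the candidate PC-3p-720_6860 at 0.996 (0.672 to 1.48). The largest positive values were those of the longer miR-205b-5p forms, with log2 fold changes of 0.72 ± 0.38 SE for gmo-miR-205-5p_R+5 and 0.63 ± 0.31 SE for efu-miR-205_R+1_1ss23TA (edgeR adjusted p = 0.607 and 0.59, unadjusted p = 0.0964 and 0.0756). Without WR_S replicate 3 the former had a log2 fold change of 0.96, an unadjusted p of 0.0398 in edgeR and an adjusted p of 0.458, and without WR_S replicate 1 it had 0.37 and an edgeR adjusted p of 0.974. The 3p entries of miR-205b had log2 fold changes of -0.18 ± 0.27 SE for ssa-miR-205b-2-3p and -0.17 ± 0.61 SE for ssa-miR-205b-1-3p, and that of miR-205b-1-3p was 0.37 without WR_S replicate 1 and 0.15 without YR_S replicate 3. The scarce oni-mir-205-2-p3_1ss17TA and xtr-miR-205b_L+1R-1 had wide intervals, 0.245 to 2.01 and 0.0975 to 2.51 as folds.

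**Figure D3:**
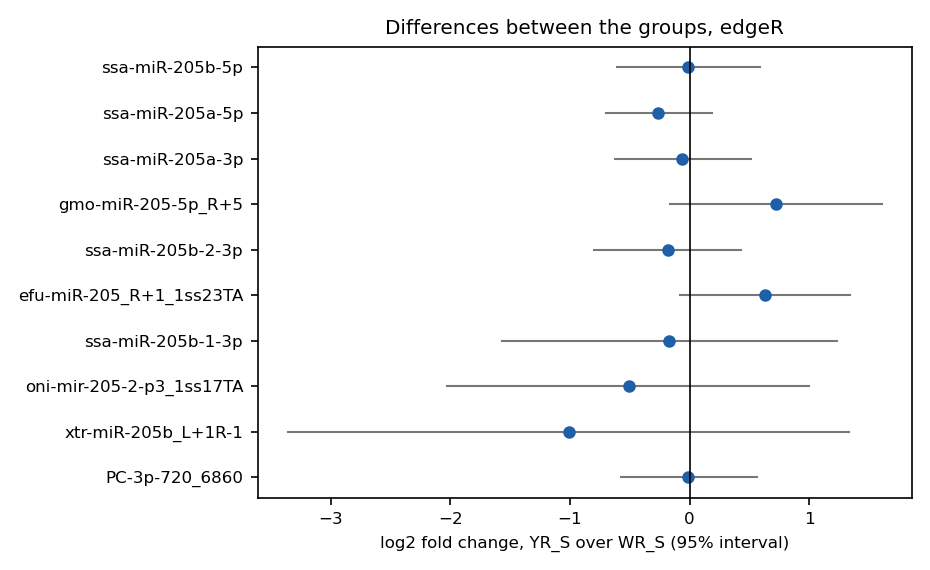
Log2 fold change of YR_S over WR_S (x axis) with its 95% interval for the 9 miR-205 entries tested and the candidate PC-3p-720_6860, from edgeR's quasi-likelihood test. Every interval includes 0, and the intervals of the scarce entries at the bottom are the widest, down to -3.36 for xtr-miR-205b_L+1R-1.

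The longer forms were also measured against the miR-205b 5p total, which needs no scaling between libraries. They made up 0.528, 0.796 and 1.55% of the miR-205b 5p counts in WR_S and 0.888, 2.24 and 1.66% in YR_S. WR_S replicate 3 lay above YR_S replicate 1. Over all 5p entries, the share outside ssa-miR-205a-5p and ssa-miR-205b-5p was 0.907 ± 0.486% in WR_S and 1.52 ± 0.633% in YR_S (two-sided exact permutation p = 0.2, n = 3 each). It was higher in YR_S by 0.609 percentage points, and the groups overlapped. With 3 against 3 libraries this test cannot give less than 0.1, so it cannot settle whether the share differed. The difference was 0.308 points without YR_S replicate 2 and 0.939 points without YR_S replicate 1.

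Among themselves the members did not follow 1 profile across libraries. Over the 6 libraries the Pearson correlation of log2(CPM + 1) with ssa-miR-205b-5p was 0.12 for ssa-miR-205a-5p, -0.47 for ssa-miR-205a-3p, -0.54 for gmo-miR-205-5p_R+5 and 0.58 for ssa-miR-205b-1-3p, while ssa-miR-205a-3p and the candidate that extends it had 0.87. These values describe 6 libraries that also share their scaling and are not tested.

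**Figure D4:**
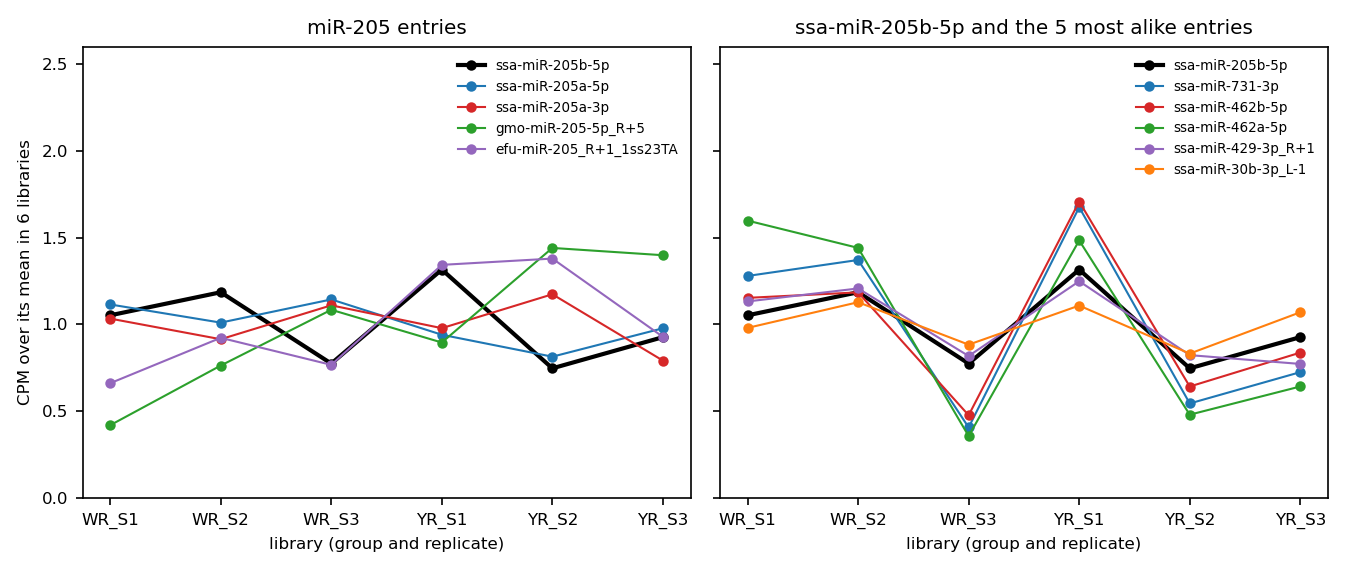
Level of each entry divided by its own mean over the 6 libraries (y axis) in each library (x axis), for 5 miR-205 entries (left) and for ssa-miR-205b-5p with the 5 entries most like it (right). On the left ssa-miR-205b-5p and the longer form gmo-miR-205-5p_R+5 run apart (r = -0.54), and on the right all entries are low in WR_S replicate 3 and YR_S replicate 2.

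Of 183 distinct entries of other names averaging at least 100 CPM, those most like ssa-miR-205b-5p over the 6 libraries were ssa-miR-731-3p (r = 0.96), ssa-miR-462b-5p (0.96) and ssa-miR-462a-5p (0.92), products of a miRNA cluster of teleost fish that rises in virus infection, and then ssa-miR-429-3p_R+1 (0.89), of the epithelial miR-200 family, and ssa-miR-30b-3p_L-1 (0.88). ssa-miR-731-3p was at 694, 744 and 220 CPM in WR_S and at 909, 295 and 393 CPM in YR_S. Like ssa-miR-205b-5p, it was highest in YR_S replicate 1 and low in WR_S replicate 3 and YR_S replicate 2. Spearman rank correlations over the 6 libraries were 0.94, 0.94, 0.77, 0.77 and 0.89 in the same order. Without YR_S replicates 1 and 2, the libraries farthest from the median, r was 0.98, 0.96, 0.94, 0.85 and 0.8. The 5 entries were picked by r over all 6 libraries, so high values over a part of these are partly built in. The choice of these 5 depended on single libraries, since 2 remained among the 5 most alike without WR_S replicate 3 or without YR_S replicate 2, and 3 without YR_S replicate 1.

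Other miRNAs of surface epithelium were set beside miR-205, namely miR-200 with miR-141 and miR-429, which hold epithelial identity, miR-203, which drives keratinocytes out of the cell cycle in the mouse, and miR-184, a miRNA of cornea and epidermis. None of their 26 tested entries passed the adjustment in edgeR, and 2 had an unadjusted p below 0.05, both lower in YR_S (6.91% of all entries were lower at that p). Without WR_S replicate 3 there were 7 at that p (9.89% of all entries tested), and without YR_S replicate 1 there were 6 (11.7% of all entries tested). Entries with identical counts under several names were each counted here. The 2 entries were gmo-miR-184-3p_R+1 (2289 ± 126 CPM in WR_S, 1524 ± 170 CPM in YR_S) and ssa-miR-203b-3p_L+1 (604 ± 235 and 209 ± 117 CPM), with log2 fold changes of -0.59 ± 0.18 SE and -1.54 ± 0.45 SE (edgeR adjusted p = 0.273 for both). DESeq2 called the same entries with adjusted p of 0.0126 and 0.0331, where 3.69% of the entries with an adjusted p passed. Of the 26 entries 25 had a log2 fold change below 0, as did 52.6% of all entries, with a median of -0.5 beside -0.03 over all entries. With entries of the same sequence and counts taken once, 21 of 22 were below 0 and the median was -0.53. For the miR-205 entries 7 of 9 were below 0 and the median was -0.17. The difference between the miR-205 and the epithelial entries was not tested. The other named members of miR-200 were ssa-miR-200b-3p_R-1 (5396 ± 1175 and 3834 ± 1202 CPM), ssa-miR-200a-3p (3814 ± 581 and 2673 ± 624 CPM) and hsa-miR-200b-3p_R+2 (289 ± 97.9 and 186 ± 36 CPM), in WR_S and YR_S. The entry xla-miR-200b-3p had the same counts as ssa-miR-200a-3p in every library. How reads were divided between the names is not stated, so the level given may be the whole or a part. Those of miR-203 and miR-184 were ssa-miR-203a-3p (943 ± 37.7 and 733 ± 387 CPM), ssa-miR-203a-2-5p (2.21 ± 1.95 and 2 ± 1.1 CPM), aca-miR-184-3p_R+1 (9.06 ± 2.16 and 5.72 ± 2.52 CPM) and ola-miR-184-3p_1ss21GC (3.12 ± 0.807 and 2.19 ± 1.81 CPM), in WR_S and YR_S. Summed per library, these families were at 14607, 14981 and 11772 CPM in WR_S and at 12024, 9501 and 7159 CPM in YR_S. In this sum entries of the same sequence and counts were taken once, which left 25 of 29 entries. If reads were divided among such names, the sum is too low. Each of the 3 families was above 0 in every library.

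Markers of other cell types moved between libraries too, and their part in the miR-205 levels was not tested. In their sums too, here and in the next paragraph, entries of the same sequence and counts were taken once, with the same limit. The leukocyte families (miR-142, miR-150, miR-155, miR-223; 13 of 15 entries tested) summed to 810, 1128 and 666 CPM in WR_S and to 1012, 659 and 760 CPM in YR_S. Like ssa-miR-205b-5p they were low in WR_S replicate 3 and YR_S replicate 2, and their Pearson correlation with it over the 6 libraries was 0.93. For the epithelial families together it was 0.48, with 0.57 for miR-200, miR-141 and miR-429, 0.4 for miR-203 and -0.06 for miR-184. The endothelial miR-126 family (6862 to 7431 CPM in WR_S, 5105 to 10205 CPM in YR_S) and the stromal families miR-143, miR-145, miR-199 and miR-214 (83376 to 107745 and 90404 to 125660 CPM) ran against ssa-miR-205b-5p, with -0.82 and -0.74. For the lists of the next paragraph the correlation was 0.09 (muscle), -0.68 (liver), -0.49 (red cells) and 0.02 (pigment cells). These correlations are descriptions over 6 libraries that share their scaling.

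The skeletal muscle families (miR-1, miR-206, miR-133, miR-499; 20 of 21 entries tested) summed to 2806 to 12616 CPM in WR_S and 2007 to 4951 CPM in YR_S, with WR_S replicate 3 highest. The liver miRNA miR-122 was at 1702 CPM in WR_S replicate 3 and at 2.93 to 25.6 CPM elsewhere, and among the WR_S libraries ssa-miR-205b-5p was lowest there. Without that library the log2 ratio of the summed miR-205 level was -0.16. The red cell families miR-451 and miR-144 stayed at 17.4 to 166 CPM over the 6 libraries. The families miR-204 and miR-211, known from pigment cells, were at 18374 to 23064 CPM in WR_S and 35529 to 39293 CPM in YR_S. They were thus higher in the group that lacks melanocytes, and which cells they came from was not tested.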

How the data were processed

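Small RNA libraries (TruSeq small RNA kit, single-end reads) came from 6 dorsal skins. Per the study's methods the authors filtered reads with ACGT101-miR, searched miRBase release 22 and predicted further candidates with Mireap. The genome build of that search is not stated in the sources used here. They deposited an estimated count per entry and library (36.8% of the nonzero values are not integers within 1e-06) and a normalized signal, which is the count times 1 factor per library. The authors' group means, their fold and log2 fold columns and their p-value column were not used. One line, a divider, named no miRNA and held no values.

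Counts were rounded. Entries above 0 in at least 3 of 6 libraries (1085) were tested with edgeR 4.0.16 in R 4.3.3 (quasi-likelihood, TMM, YR_S over WR_S, two-sided, Benjamini-Hochberg over all entries tested; common biological coefficient of variation 0.469). The SE is the log2 fold change over the root of F, and 95% intervals use the t distribution with the degrees of freedom of the fit. The script was tested on simulated data. Shares were compared by exact permutation over libraries (scipy 1.17.1, Python 3.11.15). Every p-value rests on 3 skins a group, and those of edgeR, DESeq2 and limma also draw on the spread of other entries.

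The members, lists and tests were chosen with earlier results of these data known. Named beside the members were the 3 most abundant tested entries of each epithelial family, the 5 entries most alike and entries with a miR-205 seed. Alternatives were other scalings, filters and pseudocounts, DESeq2 1.42.0, limma 3.58.1, the replicate number as a block, merged entries and each library left out. Counting the candidates and telling paralogs apart by sequence were added after seeing the data. Genome positions are not given here.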

Additional observations from a re-analysis of the deposited data

How the results depend on the processing

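No alternative gave a miR-205 entry an adjusted p below 0.05 (lowest 0.458). The count at an unadjusted p below 0.05 was 1 in place of 0 with the replicate block (9.49% of all entries tested) and without WR_S replicate 3 (9.89%). The entry was gmo-miR-205-5p_R+5 in both. Over the libraries left out the count was 0 to 1 (6.62 to 12.3% of all entries). Replicate numbers did not pair the libraries throughout. Over 493 entries the correlation of deviations was 0.239, -0.0271 and 0.332 for same-numbered libraries and -0.295 to 0.16 for the others. Numbers 1 and 3 thus stood above every differently numbered pair, and number 2 did not. Whether libraries of a number shared any handling was not tested, so the block means only that libraries share a number. It gave that entry a log2 fold change of 0.79, an unadjusted p of 0.032 and an adjusted p of 0.472 in edgeR. Over all entries the count at an unadjusted p below 0.05 was 103 with the block and 113 without, and no entry passed the adjustment in either. YR_S replicate 2 did not correlate best with its own number. Over all entries DESeq2 called 36 and edgeR 0. Of the epithelial entries 2 were called by DESeq2 and 0 otherwise. Except where they were merged or taken once, entries with identical counts were each counted. At an unadjusted p below 0.05 they were 2 in the main fit (10.4% of all entries tested). They were 4 with RLE size factors (9.86% of all entries), with a mean deposited signal of at least 10 (10.1%) and with identical counts taken once (9.41%). They were 5 with the authors' factors (10.2%), without a filter (8.7%), in DESeq2 (10.6%), with entries of the same sequence merged (11%) and with library sizes without muscle (9.95%). In limma there were 6, 6 and 8 with pseudocounts of 1, 0.5 and 5 (11.9, 11.6 and 12.2% of all entries). Over the libraries left out they were 2 to 7 (6.62 to 12.3% of all entries). The entries tested numbered 731 to 1426 over these settings. The median of all entries shifted by up to -0.19 on the log2 scale between scalings and filters.

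Leaving out single libraries turned the sign of several values near 0, and the cause was not tested. The log2 fold change of ssa-miR-205b-5p ranged from -0.35 to 0.16, that of ssa-miR-205a-3p from -0.22 to 0.0, that of ssa-miR-205b-1-3p from -0.94 to 0.37 and that of PC-3p-720_6860 from -0.22 to 0.04. The YR_S minus WR_S difference of the paralog share (0.276 points) ranged from -0.816 to 1.02, and that of the arm share (-0.051) from -0.442 to 0.212, with 0.0463 when the candidates were counted. That of the share of the other 5p entries (0.609) ranged from 0.308 to 0.939. The sum over the family had a log2 ratio between -0.25 and 0.14 in all alternatives. Of the 5 most alike entries 2 to 4 remained when a library was left out.

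YR_S replicate 1, the shallowest library, limits the scarcest entries, since 3 of its counts stand for 1.95 CPM.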

Other observations

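Among the 469 predicted candidates, 31 held the whole sequence of a named entry, and 2 of these averaged at least 100 CPM. PC-3p-720_6860, which extends ssa-miR-205a-3p, was 1 of these 2 and ranked 2 by mean level among all candidates.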
